A study of Mus musculus with 6 samples.

Results

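H/ACA box snoRNAs are nuclear RNAs whose short fragments were sequenced here in the mouse hippocampus, with and without Dicer1 in its excitatory neurons. The members are the rows whose name starts with SNORA in any case and that held at least 100 raw counts over the 6 libraries. They are 67 of 109108 deposited rows and of 1007 rows named SNORA, of which 829 held 0 counts and 111 held 1 to 99. The members were thus chosen by their total raw count, and the difference between genotypes was not used. Just inside the minimum were SNORA84.1 and SNORA66.2 with 104 counts each and SNORA55.4 with 100, and just outside were SNORA70.2 with 98, SNORA48.1 with 96 and Snora47 with 87.

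All mice were male C57BL/6, 3 months old, carried floxed Dicer1 on both alleles and were given tamoxifen, and tissue was taken 3 weeks later. The 3 Dicer1-ifKO libraries came from mice that also carried CaMKIIa-creERT2, a recombinase that tamoxifen activates in excitatory forebrain neurons, and the 3 WT libraries from mice without it. Other hippocampal cells keep Dicer1, and each library pooled RNA of 3 mice, so p-values reflect only how far pools differ. The comparison asks how small RNAs differ once Dicer1 is lost from these neurons.

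An H/ACA snoRNA folds into a pair of hairpins joined by a hinge with the H box, and ends shortly after an ACA box. With the proteins dyskerin (Dkc1), Nhp2, Nop10 and Gar1 it guides the change of uridine to pseudouridine, mostly in ribosomal RNA. Most mammalian H/ACA snoRNAs are trimmed out of introns of host genes by exonucleases, without Dicer. Dicer cuts miRNA hairpins, and a few H/ACA hairpins are also cut into miRNAs.

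The sequences of 3 members that hold annotated miRNAs are shown first, from GENCODE M21 on GRCm38, 5′ to 3′ on the strand of the snoRNA, with the stretches of the miRNA rows in capitals. Snora36b lies at chr1:185242907-185243038 (plus strand) in an intron of Rab3gap2, SNORA58.1 at chr12:87437682-87437817 on the minus strand in an intron of Alkbh1, and SNORA19.7 at chr19:60774330-60774461 on the minus strand in an intron of Eif3a.
Snora36b: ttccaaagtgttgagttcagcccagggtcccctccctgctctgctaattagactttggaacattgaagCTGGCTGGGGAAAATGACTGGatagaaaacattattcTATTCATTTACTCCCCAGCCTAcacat
SNORA58.1: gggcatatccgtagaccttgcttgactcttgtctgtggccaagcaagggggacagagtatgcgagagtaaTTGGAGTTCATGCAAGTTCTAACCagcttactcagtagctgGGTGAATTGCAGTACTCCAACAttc
SNORA19.7: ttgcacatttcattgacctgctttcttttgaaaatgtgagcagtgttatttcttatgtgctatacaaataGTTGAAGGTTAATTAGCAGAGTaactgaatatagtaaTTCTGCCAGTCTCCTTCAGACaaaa
In Snora36b the capitals are miR-664-5p (bases 69 to 89) and miR-664-3p (bases 106 to 127). In SNORA58.1 they are miR-3068-5p (bases 71 to 94) and miR-3068-3p (bases 112 to 133), and in SNORA19.7 miR-3084-5p (bases 71 to 92) and miR-3084-3p (bases 108 to 128). All of these stretches lie in the 3′ part of the snoRNA and equal the mature miRNAs in RefSeq for GRCm38.

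Snora41 and Snora16a are shown for the boxes of the class, since Snora41 had the lowest p of the members and Snora16a the most counts among members without miRNA rows. Snora41 lies at chr1:63179004-63179135 (plus strand) in an intron of Eef1b2, and Snora16a at chr4:132309465-132309600 on the plus strand within Snhg12, where at least 1 transcript has an exon. Capitals mark ANANNA starting between 40% and 60% of the length and ACA 3 bases before the 3′ end.
Snora41: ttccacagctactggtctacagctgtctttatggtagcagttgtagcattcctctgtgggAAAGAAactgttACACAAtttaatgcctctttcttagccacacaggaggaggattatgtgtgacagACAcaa
Snora16a: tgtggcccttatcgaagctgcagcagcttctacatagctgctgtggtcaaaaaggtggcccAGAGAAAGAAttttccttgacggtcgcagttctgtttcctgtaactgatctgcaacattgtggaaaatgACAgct
On the snoRNA strand, ACA stood 3 bases before the 3′ end in 51 of 67 members (76.1%) and in 1.94% of 155 C/D box snoRNAs of at least 60 bases. It stood there in 7.29% of the 4059 GENCODE transcripts within the members' range of lengths. ANANNA, which can overlap itself, started in that middle stretch in 61 members (91.0%), 33.6% of the C/D snoRNAs and 55.7% of those transcripts. The stretch scales with length, so C/D rows, with a median length of 77 bases, offer fewer places for a match. The 4059 transcripts include the 67 members. These letters are descriptions of the sequence, and the members were 121 to 246 bases long with a median of 132.

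The fragments were rare. The 67 members held 34622 counts over the 6 libraries, with 7412, 5361 and 5860 in the WT libraries (replicates 1, 2 and 3) and 4852, 6029 and 5108 in the Dicer1-ifKO libraries. The 162 rows of C/D box snoRNAs with at least 100 counts, the class that guides ribose methylation, held 49350828 counts, 1425-fold more. Per base of RNA the median was 1.72 counts for members and 650 for C/D rows, and 131 C/D rows stood above the highest member (26.7 counts per base). The class was uneven, since the 3 largest members held 27.8% and the 10 largest 55.4% of its counts.

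No member passed the edgeR quasi-likelihood test in either direction (0 lower and 0 higher of 67, adjusted p up to 0.05). Among all 6539 tested features 0.795% were called lower and 0.0153% higher. At an unadjusted p up to 0.05 edgeR gave 2 members lower (2.99%, against 6.47% of all features) and 2 higher (2.99%, against 1.35%). DESeq2 called 0 lower and 0 higher after adjustment, with 1 lower and 0 higher at an unadjusted p up to 0.05. It gave no adjusted p for Snora74a, the member with the highest log2 change, so its adjusted counts do not cover every member. The log2 changes ran from -0.94 to 0.81 with a median of -0.09, and 42 of 67 (62.7%) were below 0, beside a median of -0.05 and 56.8% below 0 over all features. In 5 members all Dicer1-ifKO libraries lay below all WT libraries (7.46%, against 9.27% of all features), and in 2 all lay above (2.99%, against 3.73%). All 67 members passed the filter on low counts. The 95% interval of the change lay within 2-fold for 49 members and within 1.5-fold for 11, and a difference inside these intervals was not resolved with these libraries. In these bulk samples fewer cells of a type and less RNA per cell cannot be told apart.

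**Figure D1:**
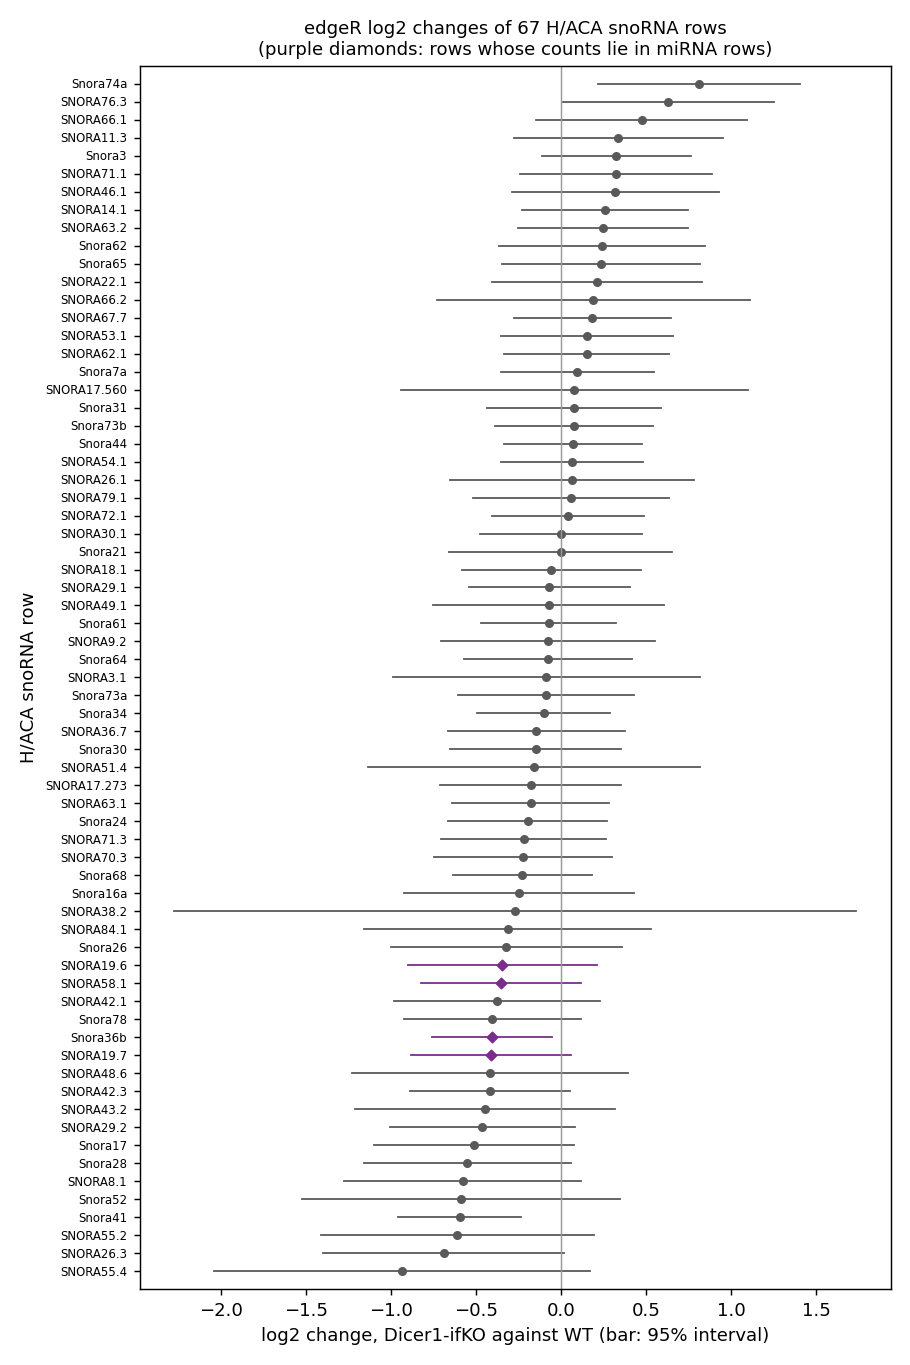
The log2 change of each of the 67 H/ACA rows, Dicer1-ifKO against WT, from edgeR (points) with its 95% interval (bars), ordered by size. Diamonds are the 4 rows whose counts lie in miRNA rows, which sit between -0.41 and -0.35. Among them SNORA19.6 and SNORA19.7 have the same sequence. No row had an adjusted p up to 0.05.

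WT replicate 1 stood apart for this class. It was the highest library for 33 of 67 members (49.3%, against 25.2% of all tested features), and the median member lay 0.29 above its own mean there on the log2 scale, while the other libraries' medians were -0.15 to 0.02. Its rRNA rows held 1.21% of summed counts, against 0.505% to 0.743% in the other 5 libraries, and its mitochondrial tRNA rows 0.308%, against 0.115% to 0.183%. Dicer1-ifKO replicate 3 was the lowest library for 19 members (28.4%, against 16.01% of all tested features). Without WT replicate 1 the median member change was 0.03. The part of rRNA and mitochondrial tRNA content in these values was not tested.

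**Figure D2:**
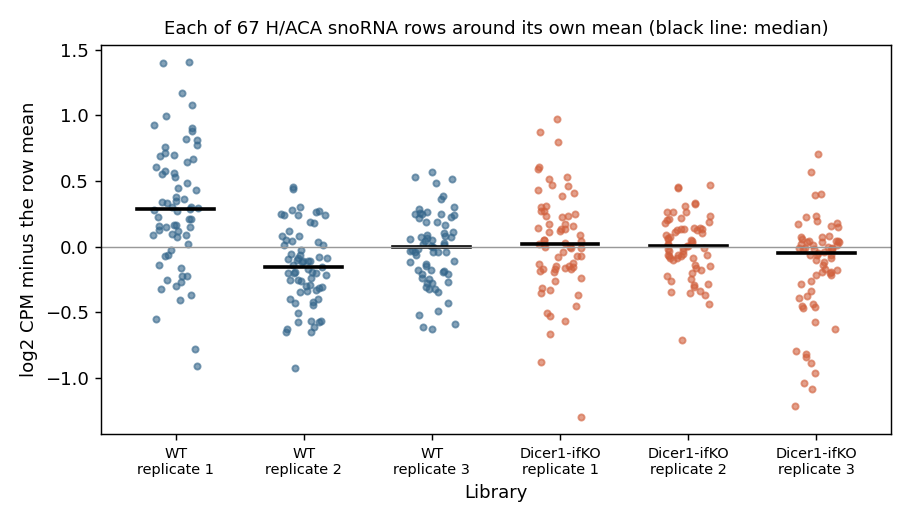
The log2 CPM of each of the 67 H/ACA rows minus the row's mean over the 6 libraries, by library, with the median as a black line. The line of WT replicate 1 is at 0.29, and the other lines lie between -0.15 and 0.02.

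The class as a share of all summed counts, in CPM (the usual scaling of counts by the library's summed counts, here without TMM factors), was 116, 71.7 and 86.4 in the WT libraries, in replicate order, and 88.1, 77.9 and 78.5 in those of Dicer1-ifKO. All 3 Dicer1-ifKO libraries lay inside the range of the WT libraries, whose highest was replicate 1. The means were 91.4 ± 22.7 and 81.5 ± 5.70 (SD, n = 3 each), a ratio of 0.891 (exact permutation test, two-sided, p = 0.7; the smallest p this design allows is 0.1). Per 1000 C/D counts the members held 0.982, 0.578 and 0.720 in WT and 0.710, 0.627 and 0.644 in Dicer1-ifKO. These averaged 0.760 ± 0.205 in the WT and 0.660 ± 0.0438 in the Dicer1-ifKO libraries (SD, 3 libraries in each group; p = 0.6 by the same exact test). Without WT replicate 1 both ratios turned, to 1.03 and 1.02.

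**Figure D3:**
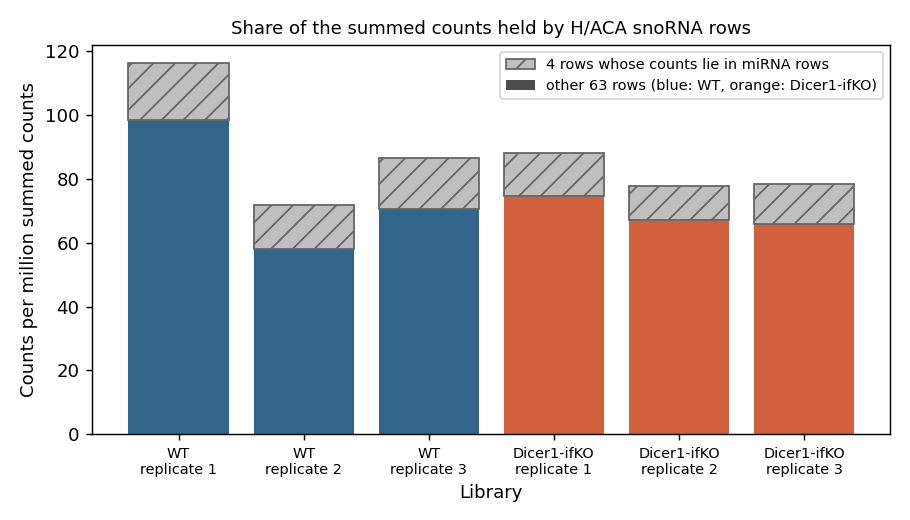
Share of the summed counts of all deposited rows held by the H/ACA rows in each library, in CPM without TMM factors. The hatched part is for the 4 rows whose counts lie in miRNA rows. The bars run from 71.7 in WT replicate 2 to 116 in WT replicate 1, and the Dicer1-ifKO bars from 77.9 to 88.1.

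Snora36b, in Rab3gap2, a regulator of Rab GTPases, was the most abundant member with 3529 counts, and its miRNA rows held 98.7% as many. The level, in CPM after TMM scaling of the counts summed without identical rows, was 15.5, 13.9 and 12.9 in WT and 10.2, 9.67 and 12.0 in Dicer1-ifKO. Every Dicer1-ifKO library lay below every WT library, and the log2 change was -0.41 ± 0.16 (SE), with an edgeR adjusted p of 0.496. Within it miR-664-3p had 2466 counts and a change of -0.43 (edgeR adjusted p = 0.598), and miR-664-5p had 1017 counts and a change of -0.35 (edgeR adjusted p = 0.795). For each of these miRNA rows alone the groups overlapped.

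SNORA58.1, in Alkbh1, which encodes a nucleic acid dioxygenase, is named Mir3068 at the same coordinates in GENCODE. Its levels were 5.33, 4.49 and 7.40 CPM in WT and 5.49, 3.87 and 4.11 CPM in Dicer1-ifKO, which overlap, and the log2 change was -0.36 ± 0.22 (SE, edgeR adjusted p = 0.815). Without WT replicate 3, its highest library, it was -0.09. Of its 1447 counts, miR-3068-3p held 1252 and miR-3068-5p 218, which sum to more than the row. SNORA19.6 and SNORA19.7 have the same 132 bases at separate places on chromosome 19, so their 329 and 316 counts may come from either. Their changes were -0.35 ± 0.26 and -0.41 ± 0.22 (SE), and miR-3084-3p held 321 and 313 of the counts.

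These 4 members carried at least 50% of their counts in miRNA rows and made up 16.2% of the counts of the class. Their log2 changes ran from -0.41 to -0.35 with a median of -0.38, and none passed the test, while SNORA58.1 alone was -0.09 without WT replicate 3. SNORA19.6 and SNORA19.7 have the same sequence, so the 4 values are not independent. The other 63 had a median of -0.08 with 38 (60.3%) below 0, and the 546 tested miRNA rows had a median of -0.24 with 75.5% below 0. The difference between the 4 and the 63 was not tested. Snora34, in Kansl2, also holds a miRNA row, miR-1291 at bases 1 to 26, but only 4.33% of its 1156 counts lay there, and its change was -0.10 ± 0.18 (SE), or 0.03 without WT replicate 1.

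Snora41 lies in Eef1b2, which encodes a subunit of translation elongation factor 1. Its levels were 10.6, 11.2 and 13.3 CPM in WT and 8.48, 7.45 and 7.23 CPM in Dicer1-ifKO, so the groups did not overlap. The means were 11.7 ± 1.42 and 7.72 ± 0.663 CPM (SD, n = 3 each), and the log2 change was -0.60 ± 0.17 (SE), with a 95% interval of -0.96 to -0.24 and an edgeR adjusted p of 0.169. Without WT replicate 1 it was the 1 member called, at -0.67 with an edgeR adjusted p of 0.034, and over all alternatives the adjusted p ran from 0.034 to 0.897. Its change was below 0 under each of 15 settings.

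Snora16a, Snora44 and Snora61 share the host Snhg12, a noncoding RNA whose main known products are snoRNAs. Snora16a had 961 counts in WT replicate 1 against 407 and 457 in the other WT libraries and 417, 568 and 526 in Dicer1-ifKO. The log2 difference was -0.25 ± 0.30 (SE) and was 0.21 without that library. The log2 difference was 0.07 ± 0.19 for Snora44 and -0.07 ± 0.18 for Snora61 (SE), and both signs turned without WT replicate 1.

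Of the other most abundant members, SNORA48.6, in the histone chaperone gene Nap1l1, had 228, 173 and 193 counts in WT and 202, 149 and 78 in Dicer1-ifKO. In CPM, Dicer1-ifKO replicate 1 was the highest of the 6 libraries (4.86) and Dicer1-ifKO replicate 3 the lowest (1.66). The difference of -0.42 ± 0.35 (SE) was -0.89 without the former and -0.12 without the latter. Snora28, in the initiation factor gene Eif5, had 265 counts in WT replicate 1 and 104 to 129 in all other libraries, with a difference of -0.55 ± 0.28 (SE) that was -0.12 without that library.

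**Figure D4:**
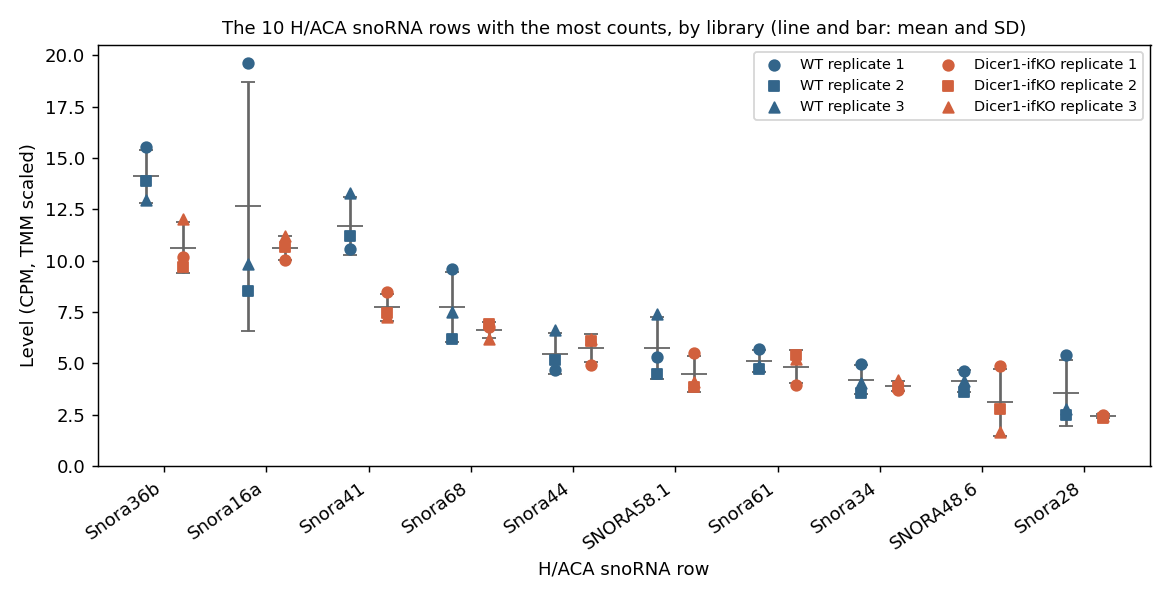
Levels in CPM of the 10 H/ACA rows with the most counts in each library, with the mean and SD of each group of 3. WT replicate 1 is far above the rest for Snora16a and Snora28, and the groups are apart for Snora36b and Snora41.

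Further members were named for a low p or for groups that did not overlap. Snora74a, which had the highest log2 difference, held 15, 9 and 15 counts in WT and 20, 26 and 22 in Dicer1-ifKO, so the groups did not overlap (0.81 ± 0.27, SE, edgeR adjusted p = 0.307). Snora3, in the ribosomal protein gene Rpl27a, was the other member with all Dicer1-ifKO libraries above WT, at 1.78, 1.21 and 1.89 CPM against 2.12, 1.93 and 2.06 (0.33 ± 0.20, SE, edgeR adjusted p = 0.817). SNORA76.3, with no host on its strand, had a difference of 0.63 ± 0.29 (SE, edgeR adjusted p = 0.62) and overlapping groups. Leaving out 1 library moved SNORA76.3 to 1.07 (without WT replicate 3) and Snora3 to 0.16 (without WT replicate 2).

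SNORA26.3, in Mia2, a gene for a protein of endoplasmic reticulum exit sites, stood lower in all Dicer1-ifKO libraries, with 95, 59 and 63 counts in WT and 47, 63 and 23 in Dicer1-ifKO (-0.69 ± 0.32, SE, edgeR adjusted p = 0.662). That order holds for CPM and not for the counts, and the difference was -0.38 without Dicer1-ifKO replicate 3. The remaining members with lower, separate Dicer1-ifKO libraries, named after their values were seen, were SNORA29.2 (-0.46 ± 0.25, SE) in the chaperonin gene Tcp1 and Snora78 (-0.40 ± 0.24, SE) in the noncoding host Snhg9. They held 139 and 143 counts in all.

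None of the members with a role outside the common pattern, or of the early described guides, passed the test. Snora73a and Snora73b, the U17 RNAs that act in cleavage of the ribosomal RNA precursor, differed by -0.09 ± 0.24 and 0.08 ± 0.21 (log2, SE). Among guides in ribosomal protein genes, the log2 difference was -0.08 ± 0.23 for Snora64 (Rps2), 0.23 ± 0.27 for Snora65 (Rpl12) and -0.0031 ± 0.30 for Snora21 (Rpl23), whose sign turned in 10 of 14 settings and which was 0.42 without WT replicate 1. Snora35, the brain H/ACA RNA inside Htr2c, had 78 counts and Snora75, inside the nucleolin gene, 48, so both were under the minimum.

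Of the 67 members 54 lay in an intron of a host on their strand, 8 touched an exon of a host and 5 had no host. The 13 in ribosomal protein genes had a median log2 difference of 0.10 with 5 below 0, and the 5 in translation factor genes -0.41 with 4 below 0. That median is the value of SNORA19.7, whose reads are those of miR-3084 and may come from SNORA19.6, and another of the 5 is Snora28. The 10 in long noncoding RNAs had a median of -0.07 and the 34 in other protein-coding genes -0.15 with 24 below 0. Groups followed the GENCODE gene type, and a coding host was taken first where several enclosed a member. By this rule SNORA22.1 in Cct6a counts as noncoding and SNORA71.3 in Snhg11 as coding. Snora73a and Snora73b count under Rcc1, though they also lie within Snhg3. These differences between host groups were not tested. Longer transcript rows of either strand, whether or not of the host, enclosed 59 members. Of these, 23 held at least 90% as many counts as the largest such row and 8 under 10%. For 4 members a row lies on the opposite strand, and reads of the 2 strands cannot be told apart there, since the counter's strand setting is not given in the sources used here.

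Some names stand for several loci. They were 26 members under 12 names, and 12 of their 16 pairs shared a run of at least 18 bases, the shortest insert, so reads of those pairs can be uncertain between loci. Snora30 and SNORA30.1, 98.5% identical, held 373 and 356 counts with differences of -0.15 and -0.0006. SNORA55.2 and SNORA55.4, 96.9% identical, gave -0.61 and -0.94. Summed to 53 names, the median was -0.08 and no name was called.

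Related RNAs and proteins were read from lists. The 18 tested scaRNAs, which guide changes in spliceosomal RNAs and mostly share the H/ACA fold, gave 0 calls, 9 below 0, and a range of -0.82 to 0.46. Some of them also hold miRNA rows. The larger miRNA row had 70.6% as many counts as Scarna3a, 82.8% as Scarna3b and 89.0% as SCARNA16.1. The log2 changes of these scaRNA rows were -0.17, -0.24 and -0.10, and those of the larger miRNA rows -0.09, -0.15 and -0.26. The smaller miRNA rows changed by -0.29, -0.66 and 1.04 (edgeR adjusted p = 0.788, 0.136 and 0.411), the last with 52 counts. In each of the smaller rows the groups did not overlap. In Scarna13, at -0.17, the miRNA rows had 26.8% and 24.2%. The 162 C/D rows gave 0 calls by edgeR and 1 at an unadjusted p, with a median of -0.03 and 98 below 0. The mRNA spans of Dkc1, Nhp2, Nop10 and Gar1 held 9, 12, 3 and 3 counts, and those of the assembly factors Naf1, Shq1, Nolc1, Ruvbl1 and Ruvbl2 held 6 to 11, so none of the 9 could be tested.

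Marker miRNAs of neurons summed to 1359 to 1662 CPM in WT and 1103 to 1355 in Dicer1-ifKO (4 of 4 found), and none of the listed markers was at 0. The sum of the 2 miRNAs listed for astrocytes (4536 to 5484 against 3744 to 4180 CPM) was also lower in all Dicer1-ifKO libraries. So was that of the 2 listed for choroid plexus (319 to 342 against 217 to 236 CPM). The sum of the 4 listed for microglia and leukocytes was higher (147 to 181 against 187 to 205 CPM). Whether the miRNAs of a list come mainly from the named cells, or also from neurons, was not tested. The lower sum of the astrocyte list is thus not a measure of astrocytes. Sums for oligodendrocytes, vessels and erythrocytes overlapped. Dicer cuts miRNA hairpins, and 412 of the 546 miRNAs tested here lay below 0. Sums of marker miRNAs therefore cannot tell fewer cells of a type from less miRNA per cell. The part of cell types in the values of the members was not tested.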

How the data were processed

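Small RNA libraries (TruSeq) of pooled hippocampal RNA were read on an Illumina instrument, per the labels. The deposited files hold raw counts per feature as the authors made them, and a normalized signal that the authors made from the counts with 1 constant per library, read only to obtain these constants. Tools listed without roles in the submitters' processing notes are BWA, CASAVA 1.8.2, DESeq2 and SAMtools 0.1.18, with the build GRCm38. Which counter, strand setting and annotation were used is not given in the sources used here. Deposited counts summed to 55101387 to 77428956 per library, but features overlap, so these sums are not reads.

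Groups came from the sample titles. After 13135 identical rows were left out, edgeR 4.0.16 (R 4.3.3) was run on the whole table: filterByExpr with a minimum count of 10, TMM, robust glmQLFit and a two-sided glmQLFTest, Benjamini-Hochberg over 6539 features, threshold 0.05. SEs came from the F statistic. For shares, an exact two-sided permutation test over libraries was used. DESeq2 1.42.0, other scalings and filters, a replicate block and leaving out each library were alternatives. Of these steps, only the edgeR fit was tried on simulated data. Replicates differed by more than counting noise, so each counts as 1 sample. Sequences, hosts and positions came from GENCODE M21 (GRCm38), where all 67 members matched by coordinates. Named were the 10 largest members, the 5 lowest in p, up to 5 falls and 5 rises without overlap (mean count 50 or more), and members with a known separate role. The values of 1 of these are not reported here. Members and lists were chosen with earlier results of these data known.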

Additional observations from a re-analysis of the deposited data

How the results depend on the processing

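The absence of calls among the members held under other scalings, count filters, DESeq2, summed loci and the fit of snoRNA rows alone, with 0 lower and 0 higher each time. DESeq2 gave no adjusted p for Snora74a. Leaving out each library in turn gave 0 to 1 members lower and 0 higher, the 1 being Snora41 without WT replicate 1. The median log2 change, -0.09, ran from -0.20 to 0.03 over the left-out libraries, and was -0.25 for the 9 members with at least 1000 counts. The ratio of shares, 0.891, ran from 0.804 to 1.03 and turned to 1.03 without WT replicate 1, and the ratio to C/D counts ran from 0.775 to 1.02 and turned to 1.02 without that library. The cause was not tested. No pairing by replicate number was seen (correlations of same-numbered libraries -0.18, 0.0754 and -0.157, against -0.0953 to 0.207 for unlike numbers). These few correlations cannot show that the libraries share no batch. With the replicate block 0 members were lower and 0 higher, the median was -0.10, and calls over all features went from 52 lower and 1 higher to 6 and 0. The use of the authors' constants, of members without rows of miRNA reads and of the most abundant locus of each name was chosen after seeing the data and gave 0 calls. The median member held 256 counts over 6 libraries with a median SE of 0.25, and how far depth or the spread between pools sets that error was not tested.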
